A study of Mus musculus with 2 samples.

Results

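The small leucine-rich proteoglycans (SLRPs) are secreted matrix proteins, and 10 of their genes (Dcn, Bgn, Lum, Fmod, Kera, Ogn, Prelp, Omd, Aspn and Chad) were examined among the 27998 genes of the count tables. The list was set by gene name, and each member's counts were summed over the cells of each annotated cell type on each day. The question was which members were shared by the fibro-adipogenic progenitors (FAPs) and the tenocytes, and which were restricted to 1 FAP subtype or to tenocytes. All 10 members were present in the tables and all 10 had counts in at least 1 library.

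The study collected mouse tibialis anterior muscle after injury with notexin, a snake venom toxin that destroys myofibres. It comprised 2 droplet-based single-cell RNA sequencing libraries, 1 from day 2 and 1 from day 7, made by capturing the 3′ ends of polyadenylated RNA. According to the annotation, each library came from 1 mouse and from whole dissociated muscle, so a difference between days is a difference between 2 libraries with no replicate error. The intervals given here are 95% intervals that cover counting error only, and no test between days was possible.

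Both libraries are labelled C57Bl/6, female and 7 months old, and neither library is an uninjured control. The annotation table instead gives both as male and the earlier mouse as 4 months old. Over called barcodes, Xist counted 5 and 1 in the 2 libraries while 4 Y-linked genes counted 6575 and 4856, so the labelled sex was contradicted in both and the age could not be settled. After cells of low quality were taken out, 3178 and 3196 cells remained at days 2 and 7, and 1 barcode sequence occurred in both sets. The kept cells held a median of 9058 and 6583 UMI counts, where a UMI count is 1 tagged RNA molecule.

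SLRPs share a core of leucine-rich repeats, and most members carry glycosaminoglycan chains. Decorin (Dcn), biglycan (Bgn) and asporin (Aspn) form one class. Lumican (Lum), fibromodulin (Fmod), keratocan (Kera), PRELP and osteomodulin (Omd) form another, osteoglycin (Ogn) belongs to a further class, and chondroadherin (Chad) is a non-canonical member. The proteins bind collagen fibrils and set their diameter and spacing, and several bind growth factors of the TGF-β family. FAPs are the PDGFRα-positive mesenchymal cells of the muscle interstitium and a main source of its matrix, and tenocytes are the fibroblasts of tendon.

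Several members lie next to each other in the genome (mm10). On chromosome 10, Dcn (97479609 to 97518143), Lum (97565128 to 97572703) and Kera (97606879 to 97613692) follow each other on the plus strand, with gaps of 46.98 and 34.18 kb. On chromosome 13, Aspn (49544443 to 49567565), Omd (49582462 to 49592822) and Ogn (49608046 to 49624501) lie in a row with gaps of 14.9 and 15.22 kb. Prelp (133910304 to 133921414, minus strand) and Fmod (134037254 to 134048277, plus strand) lie 115.8 kb apart on chromosome 1. Chad lies on chromosome 11 (94565047 to 94569127) and Bgn on chromosome X (73483602 to 73495933).

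Upstream sequences are shown for 4 members as examples of different places and times of expression. Fmod and Chad had nearly all counts in tenocytes, Aspn had the largest day difference in FAPs among the members with counts on both days, and Bgn was found in most stromal cells. RefSeq promoters were matched for 8 of the 10 members, and those of Dcn and Lum were not used here. Each run gives the 250 bases before the annotated start, 5′ to 3′ on the gene's strand, which is the plus strand in each case (GRCm38.p6, the build called mm10). Capitals mark each match to the E-box pattern CANNTG.
Fmod, chr1:134037004-134037253: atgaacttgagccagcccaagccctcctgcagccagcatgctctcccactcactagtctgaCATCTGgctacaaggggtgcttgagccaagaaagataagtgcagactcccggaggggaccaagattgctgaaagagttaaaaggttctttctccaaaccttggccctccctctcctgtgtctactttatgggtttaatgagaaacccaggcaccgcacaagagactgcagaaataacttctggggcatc
Chad, chr11:94564797-94565046: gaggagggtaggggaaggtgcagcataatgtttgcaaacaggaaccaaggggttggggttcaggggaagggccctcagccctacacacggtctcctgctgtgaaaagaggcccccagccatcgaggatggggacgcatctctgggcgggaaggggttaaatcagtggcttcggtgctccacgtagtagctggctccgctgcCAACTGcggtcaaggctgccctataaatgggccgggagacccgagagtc
Aspn, chr13:49544193-49544442: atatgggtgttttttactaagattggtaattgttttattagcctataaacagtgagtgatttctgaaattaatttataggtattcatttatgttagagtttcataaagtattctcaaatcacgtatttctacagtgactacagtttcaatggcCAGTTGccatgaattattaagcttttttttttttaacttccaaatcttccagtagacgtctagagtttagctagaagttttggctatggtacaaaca
Bgn, chrX:73483351-73483600: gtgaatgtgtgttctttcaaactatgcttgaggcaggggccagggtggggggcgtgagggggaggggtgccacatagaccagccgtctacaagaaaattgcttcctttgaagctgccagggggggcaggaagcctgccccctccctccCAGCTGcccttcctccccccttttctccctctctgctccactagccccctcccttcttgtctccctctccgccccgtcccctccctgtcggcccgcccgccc

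These windows differed in base composition. The Aspn window was 30% G and C, a lower value than in all but 1.5% of the 32841 windows of the same length, whose median was 52.4%. The Bgn window was 64.4% G and C, the Chad window 60.4% and the Fmod window 51.2%. Each of the 4 windows held 1 match to CANNTG, and 66.2% of all windows held 1 or more. Both strands were searched for each motif.
The Fmod match, at -189 from the start, read CATCTG, a case of CANNTG that 14.4% of windows held. TATAAA (12.4% of windows) was found in Chad at -28 and in Aspn at -207 on the plus strand and -178 on the minus strand. GGGCGG (32.7% of windows) was found once in Chad at -108 and 3 times in Bgn, at -34, -10 and -6 on the minus strand. TGANTCA (6.75% of windows) and GGAATG (12.6% of windows) were in none of the 4. A match is only a match of letters, and no binding was measured.

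FAPs and tenocytes held nearly all SLRP counts. At day 2, 96.4% of the 44921 counts of the 10 members lay in these cells, and at day 7 98.1% of 217366 counts. FAPs alone held 91.5% (95% interval 91.3 to 91.8%) and 94.0% (93.9 to 94.1%), although they were 6.77% of kept cells and held 15.1% of all counts at day 2, and were 25.2% of cells with 29.5% of counts at day 7. Tenocytes held 4.84% and 4.12% of SLRP counts while being 0.504% and 1.5% of cells. Aspn was the exception at day 2, when 80.7% of its 675 counts lay in cells labelled Smooth Muscle and 15.0% in FAPs.

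**Figure D1:**
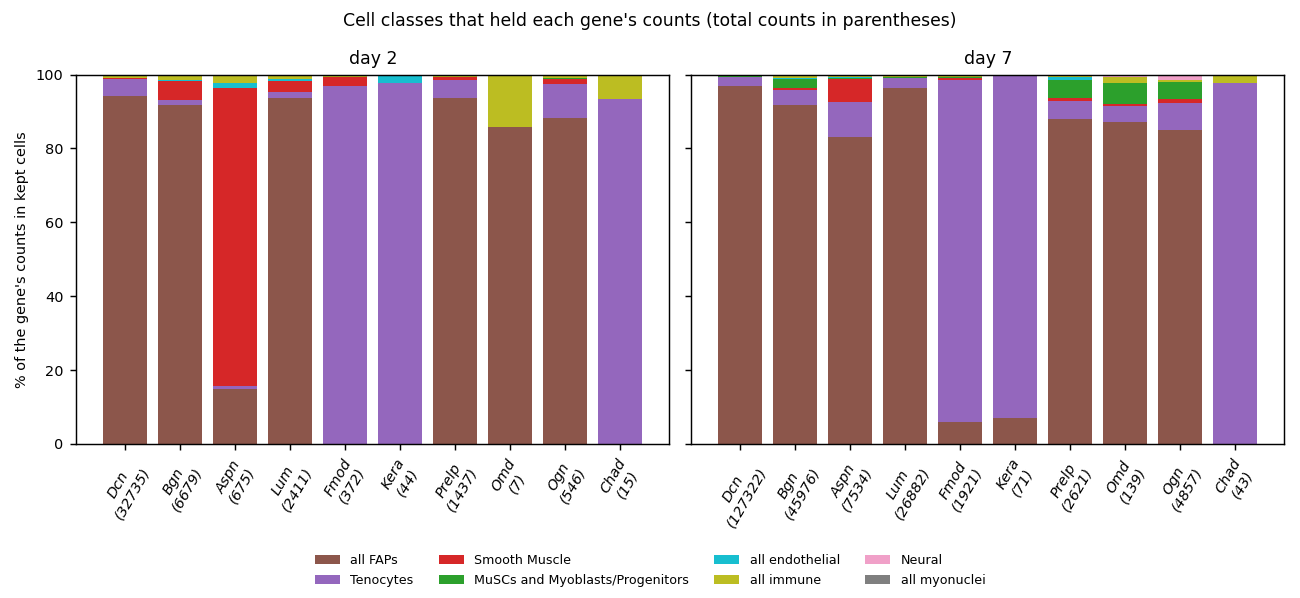
Share of each member's counts (vertical axis, percent) by cell class at day 2 and day 7, with 1 bar per member. FAPs take most of every bar except those of Fmod, Kera and Chad, which are tenocyte bars on both days, and the day 2 bar of Aspn, which lies mostly in Smooth Muscle.

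The annotation divides FAPs into 3 subtypes, FAPs (Stem), FAPs (Adipogenic) and FAPs (Pro-remodeling), with 47, 30 and 138 cells at day 2 and 78, 232 and 495 at day 7. Tenocytes had 16 and 48 cells. Their median counts per cell at day 2 were 23623, 11650, 26217 and 6703 in the same order, and at day 7 they were 6717, 5180, 10156 and 8441. The 6 FAP markers (Pdgfra, Ly6a, Cd34, Dpt, Pdgfrl and Gsn) summed to between 6028 and 17287 CPM (counts scaled to a total of 1000000) in the subtypes and to 3217 and 2856 CPM in Tenocytes. The 5 stem FAP markers were highest in FAPs (Stem) on both days, at 529 and 6171 CPM. The lists taken for the other subtypes did not separate them. The adipogenic list stood at 5417 CPM in FAPs (Adipogenic) and 11519 CPM in FAPs (Pro-remodeling) at day 2, and at 407.5 and 402.5 CPM at day 7. These names are therefore used only as the annotation gives them. In FAPs (Pro-remodeling), tenocyte markers stood at 153 CPM at day 2 and 1303 at day 7, and myofibre markers at 4.85 and 293. Immune markers were 812 CPM in the day 2 FAPs (Adipogenic) against 101 and 131 CPM in the other 2 subtypes. The labels were drawn from the expression of all genes, so differences between them are descriptions.

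Dcn, the decorin gene, had the most counts of the 10 in every stromal label and was detected in every FAP and every tenocyte. At day 2 it stood at 3151 CPM in FAPs (Stem), 4653 in FAPs (Adipogenic), 7167 in FAPs (Pro-remodeling) and 9575 in Tenocytes. At day 7 the same labels gave 13143, 14806, 15411 and 7272 CPM. By these summed levels Tenocytes were highest at day 2 and lowest at day 7, and no neighbouring counting intervals overlapped. The day 2 place of Tenocytes rested on few cells, since 5 of the 16 held 72.7% of their Dcn counts. The median over cells at day 2 was 5291 CPM in Tenocytes, below the 6633 CPM of FAPs (Pro-remodeling), and as mean counts per cell Tenocytes stood at 94.5 against 143 in all FAPs. At day 7 the median in Tenocytes was 5110 CPM, against 13290 to 14642 CPM in the subtypes. Each level is scaled to all counts of the label and is not scaled by gene length, so levels are compared between labels and not between genes.

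Bgn, which encodes biglycan, was found in 97.7% of FAPs at day 2 and 97.4% at day 7. Its day 2 levels were 783 CPM in FAPs (Stem), 1241 in FAPs (Adipogenic), 1337 in FAPs (Pro-remodeling) and 532 in Tenocytes. At day 7 they were 2500, 4757, 5577 and 4210 CPM. FAPs (Adipogenic) and FAPs (Pro-remodeling) overlapped in their intervals at day 2 (1128 to 1363 and 1299 to 1376 CPM) and did not at day 7. Tenocytes were the lowest label at day 2 and FAPs (Stem) the lowest at day 7.

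Lum, encoding the keratan sulphate proteoglycan lumican, had the same order of FAP subtypes on both days. It stood at 160, 379 and 548 CPM in FAPs (Stem), (Adipogenic) and (Pro-remodeling) at day 2, with 247 CPM in Tenocytes. At day 7 the values were 1217, 2390, 3602 and 1632 CPM. FAPs (Stem) held less Lum than FAPs (Pro-remodeling) by a log2 difference of -1.78 (-1.99 to -1.57) at day 2 and -1.57 (-1.67 to -1.46) at day 7.

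Ogn, the osteoglycin gene, was highest among the FAP subtypes in FAPs (Stem) on both days. They stood at 148 CPM at day 2, against 98.3 in FAPs (Adipogenic) and 73.8 in FAPs (Pro-remodeling), and Tenocytes were higher still at 317 CPM. At day 7 FAPs (Stem) reached 1042 CPM, above Tenocytes at 799, FAPs (Pro-remodeling) at 476 and FAPs (Adipogenic) at 412. FAPs (Stem) over FAPs (Pro-remodeling) was 1.0 on the log2 scale (0.73 to 1.28) at day 2 and 1.13 (1.0 to 1.25) at day 7. FAPs (Stem) were thus the lowest FAP subtype for Lum and the highest for Ogn in each library.

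Aspn, encoding asporin, was sparse in FAPs at day 2 and abundant at day 7. The day 2 levels were 51.2 CPM in FAPs (Stem) from 65 counts, 5.62 in FAPs (Adipogenic) from 2 counts, 9.69 in FAPs (Pro-remodeling) from 34 counts, and 25.3 in Tenocytes from 4 counts. The day 7 levels were 1013, 485, 820 and 1603 CPM. FAPs (Stem) exceeded FAPs (Pro-remodeling) by 2.40 on the log2 scale (1.78 to 3.04) at day 2 and by 0.30 (0.18 to 0.42) at day 7. On the scale of mean counts per cell the day 7 difference was -0.29.

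Prelp, whose protein anchors basement membranes to connective tissue, lay within a narrow range. Its day 2 levels were 155 CPM in FAPs (Stem), 309 in FAPs (Adipogenic), 297 in FAPs (Pro-remodeling) and 437 in Tenocytes. Its day 7 levels were 380, 313, 264 and 287 CPM. FAPs (Stem) were the lowest label at day 2 and the highest at day 7, where their interval overlapped those of FAPs (Adipogenic) and Tenocytes.

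Fmod, the fibromodulin gene known from tendon, was restricted to Tenocytes. At day 2 the label held 360 counts in 13 of 16 cells, a level of 2280 CPM (2050 to 2528). No count was found in 215 FAPs with 5133205 counts, which allows up to 0.584 CPM, so the level was at least 3901-fold higher in Tenocytes. At day 7 it was 3986 CPM (3803 to 4176) in Tenocytes from 1781 counts, and 113 counts in FAPs gave 13.9 CPM. The difference was 8.17 on the log2 scale (7.89 to 8.45), or 287-fold. The 13.9 CPM in FAPs stood beside 1.02 CPM in immune cells and 30.6 CPM in barcodes with 1 to 100 counts, which carry free RNA.

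Kera, the keratocan gene best known from the cornea, had 43 counts in Tenocytes at day 2 (272 CPM) and 66 at day 7 (148 CPM). FAPs held 0 counts at day 2 and 5 at day 7. The Tenocytes level was at least 466-fold higher at day 2, and 241-fold higher at day 7 (log2 7.91, 6.62 to 9.58). Chad, a cartilage and tendon matrix gene, had 14 counts (88.7 CPM) and 42 counts (94.0 CPM) in Tenocytes and none in FAPs on either day. Its level there was at least 152-fold and at least 255-fold higher than in FAPs. Outside these labels 1 count of Kera and 2 of Chad were found over both days.

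Omd, the osteomodulin gene of bone matrix, was the rarest member in FAPs with counts on both days. It had 6 counts in FAPs at day 2 and 121 at day 7, where its levels were 27.7 CPM in FAPs (Stem), 24.3 in FAPs (Adipogenic) and 10.9 in FAPs (Pro-remodeling). Tenocytes held 0 counts at day 2 and 6 counts at day 7 (13.4 CPM). Intervals of FAPs (Stem) and FAPs (Adipogenic) overlapped.

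**Figure D2:**
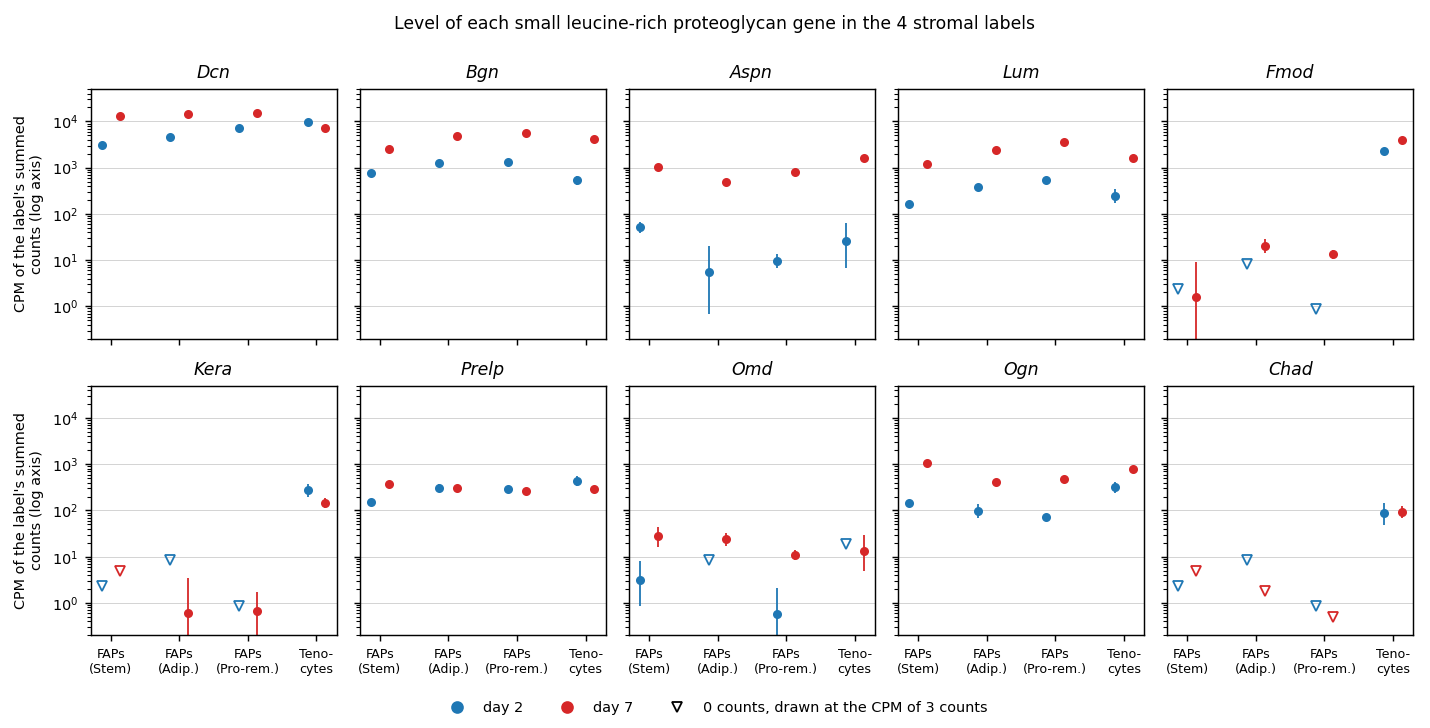
Level of each member (CPM, log axis) in FAPs (Stem), FAPs (Adipogenic), FAPs (Pro-remodeling) and Tenocytes at day 2 and day 7, with 95% counting intervals as bars and labels with 0 counts drawn as open triangles at the level of 3 counts. Fmod, Kera and Chad stand far higher in Tenocytes, while Dcn, Bgn and Lum lie within a narrow band over the 4 labels on each day.

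Members were then classed by fold over the 4 labels. A member was called shared where the highest label was at most 4-fold above the lowest, restricted where the highest was at least 4-fold above the next, and graded otherwise, with at least 50 counts in the 4 labels. At day 2, Dcn, Bgn, Lum and Prelp were shared (82.8% of all 7764 genes tested were), Ogn and Aspn were graded, and Fmod was restricted to Tenocytes (0.412% of genes). At day 7, Dcn, Bgn, Lum, Ogn, Prelp, Omd and Aspn were shared (87.7% of 9710 genes) and Fmod and Kera were restricted to Tenocytes (0.443%). Fmod at day 2 and Kera at day 7 reached 50 counts through Tenocytes alone, so their class was fixed by that filter. No member was restricted to 1 FAP subtype on either day, where 0.592% and 0.608% of genes were. With 2-fold in place of 4-fold, Aspn at day 2 was restricted to FAPs (Stem), at 2.02-fold over Tenocytes with 4 counts. It too reached 50 counts through that 1 label, with 65 of its 105. Ogn at day 2 was then restricted to Tenocytes, at 2.14-fold over FAPs (Stem). With that limit no member was shared at day 2 and only Prelp was at day 7, so the shared class depended on the limit. The share of all genes at 2-fold was not taken. Kera, Omd and Chad at day 2 and Chad at day 7 had under 50 counts and received no class. At 4-fold, being shared was the common case for any gene.

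Fewer Tenocytes carried the restricted members than the label holds. At day 7 Fmod counts came from 19 of 48 cells, the highest with 672 counts, and 5 cells held 78.3% of them. At day 2, 5 cells held 86.1%. The 9 Kera-positive cells and the 4 Chad-positive cells at day 7 all held Fmod as well, as did 5 of 6 and 3 of 3 at day 2. The 5 Tenocytes with the most counts of a gene were then left out, separately for each gene. For Fmod, 387 counts were left at day 7 and the difference to FAPs was 6.14 (5.83 to 6.46). At day 2, 50 counts were left against 0 in FAPs. For Kera 9 counts were left at day 7 (log2 5.29, 3.56 to 7.22) and 1 at day 2, and for Chad none on either day, so the Chad level rested on at most 5 cells of each library.

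The day 7 Tenocytes were therefore described in 2 sets, a choice made after the values were seen. Of the 48 cells, 24 had at least 1 count of the tendon genes Tnmd, Scx, Mkx, Comp or Cilp2, and 24 had none, with median counts of 8879 and 8019. Cells with a tendon gene held 1780 Fmod counts (6870 CPM in 18 cells), 66 Kera counts and 42 Chad counts. Cells without held 1 Fmod count and none of Kera or Chad.
Ogn stood at 1123 against 352 CPM in the 2 sets, Prelp at 444 against 69.3 and Dcn at 8479 against 5606, each with non-overlapping intervals. Aspn was in the other direction, at 1281 against 2046 CPM, as was Bgn at 3933 against 4593. Lum was 1602 against 1673 CPM, with overlapping intervals. These intervals cover counting error only, and few cells held many of the counts. Of the 48 cells, the 5 highest for each gene held 69.5% of Prelp, 56.9% of Ogn, 47.4% of Aspn and 42.5% of Dcn counts. Prelp was found in 10 against 7 cells of the 2 sets and Aspn in 18 against 20.

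The cells without a tendon gene also had higher levels of the FAP genes Pdgfra (240 against 38.6 CPM), Dpt (1092 against 386) and Pdgfrl (544 against 216), and a lower level of Gsn (858 against 1756). Thbs4, a tendon gene that FAPs also express here, was 3469 against 15931 CPM. Their part in the SLRP values of Tenocytes was not tested beyond this division. At day 2, 13 of the 16 Tenocytes had a tendon gene count and held 356 of the 360 Fmod counts.

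**Figure D3:**
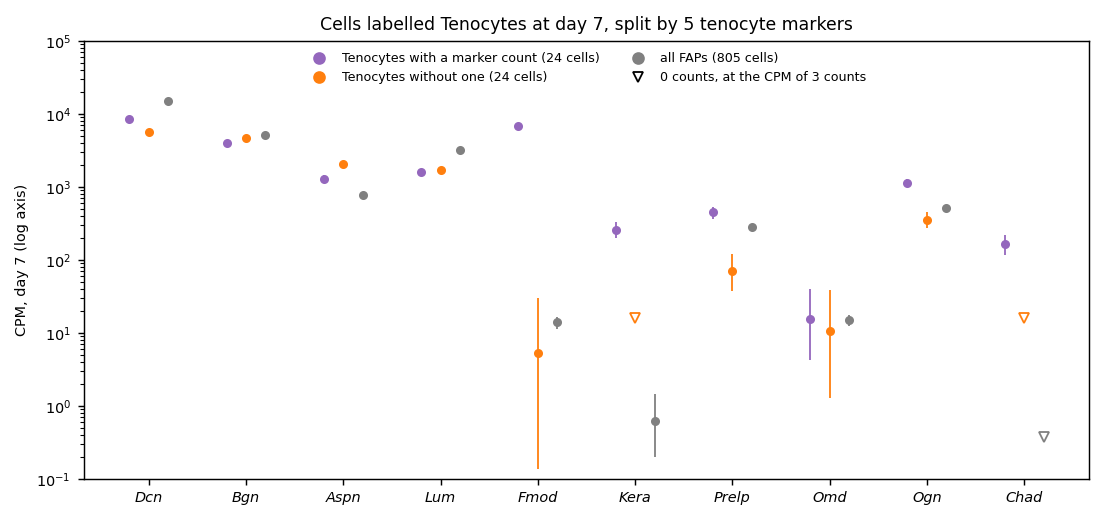
Level of each member (CPM, log axis) in the day 7 Tenocytes with and without a count of Tnmd, Scx, Mkx, Comp or Cilp2, beside all FAPs of day 7, with 95% counting intervals and 24 cells in each set of Tenocytes. Fmod, Kera and Chad lie in the set with a tendon gene count, and Aspn is higher in the other set at 2046 against 1281 CPM. The intervals leave out the spread between cells, and 5 cells of the label held 47.4% of its Aspn counts.

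Between days, the summed SLRP level of FAPs went from 8011 to 25061 CPM, so that the 10 genes made up 0.801% of all FAP counts at day 2 and 2.51% at day 7. Of the 6 members with at least 50 counts at day 2, Aspn had the largest ratio, from 19.7 to 767 CPM, which was 39.0-fold or 5.28 on the log2 scale (5.0 to 5.58). Among these 6, Lum followed at 2.85 (2.79 to 2.91), then Ogn at 2.43 (2.29 to 2.57), Bgn at 2.12 (2.08 to 2.16) and Dcn at 1.33 (1.32 to 1.35). Prelp was nearly level at 0.11 (0.01 to 0.20). Omd rested on 6 counts at day 2 and gave 3.67 (2.50 to 5.14), and Fmod was at least 23.7-fold higher from 0 against 113 counts. Of these Fmod counts, 78 lay in 32 FAPs (Pro-remodeling) and 34 in 10 FAPs (Adipogenic), 5 of which held 85.3% of the 34. Barcodes with 1 to 100 counts held 15 Fmod counts of 3053639 at day 2 and 152 of 4966167 at day 7. Kera had 0 and 5 counts and Chad none.

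Among the 8 members with at least 50 counts over both days, 7 were at least 2-fold higher at day 7 and 0 at least 2-fold lower. Of all 10391 genes tested, 22.7% were at least 2-fold higher and 14.4% at least 2-fold lower. Fmod and Omd reached 50 counts through day 7 alone, so their direction was fixed by that filter. Over the 6 members with at least 50 counts on each day the median log2 ratio was 2.27, and over all 7461 such genes it was -0.09.

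The scale mattered to these ratios, because FAPs had a median of 24329 counts per cell at day 2 and 8429 at day 7. As mean counts per cell, a scale added after the data were seen, Dcn went from 143 to 153 and Bgn from 28.5 to 52.4. Lum went from 10.5 to 32.2, Ogn from 2.24 to 5.12 and Aspn from 0.470 to 7.77. Prelp was lower, at 6.27 and 2.86. Fmod and Omd aside, whose direction the filter fixed, Lum, Ogn and Aspn were still at least 2-fold higher on that scale. Bgn and Dcn were not, and Prelp was at least 2-fold lower. The share of all genes past 2-fold was not taken on that scale. The sum of the 10 differed by 0.41 on the log2 scale there, in place of 1.65. Whether the smaller counts per cell at day 7 came from the cells or from the library cannot be told apart.

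**Figure D4:**
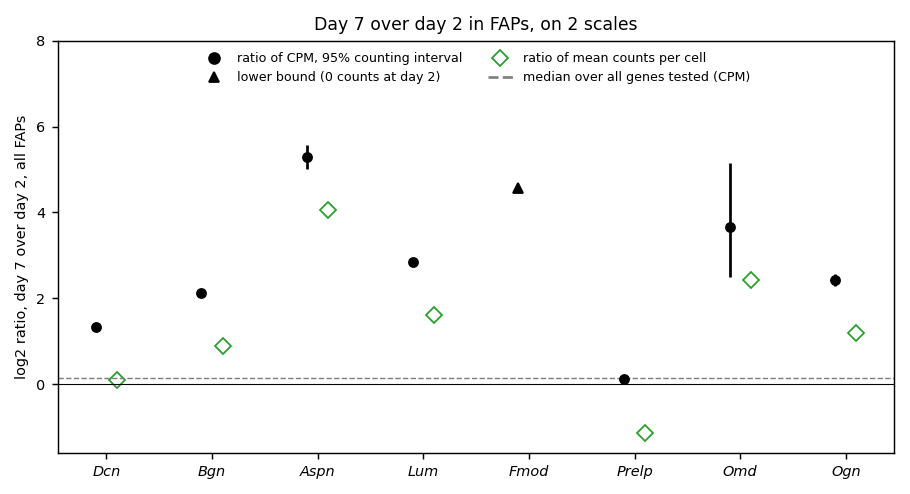
Day 7 over day 2 ratio (log2) in all FAPs of the 8 members with at least 50 counts, as CPM with 95% counting intervals and as mean counts per cell, beside the median of all genes tested. Fmod, with 0 counts at day 2, is drawn at its lower bound. Aspn stands highest among members with over 50 counts at day 2 on both scales (5.28 and 4.05), and Prelp lies at 0.11 on one scale and -1.13 on the other.

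The day ratios differed in size between FAP subtypes. Dcn was 2.06 higher on the log2 scale in FAPs (Stem) (2.01 to 2.12), 1.67 in FAPs (Adipogenic) (1.60 to 1.74) and 1.10 in FAPs (Pro-remodeling) (1.08 to 1.12). Lum differed least, at 2.93, 2.66 and 2.72 in the same order. Aspn was 4.31 (3.94 to 4.70) in FAPs (Stem), where it was already found at day 2, and 6.43 and 6.40 in the others. Prelp was 1.29 (1.01 to 1.57) in FAPs (Stem), 0.02 (-0.28 to 0.33) in FAPs (Adipogenic) and -0.17 (-0.28 to -0.05) in FAPs (Pro-remodeling). As mean counts per cell Prelp was -0.49, -0.72 and -1.26 in these 3 subtypes, so the direction in FAPs (Stem) depended on the scale, and Dcn was 0.28, 0.93 and 0.01, which is another order. The differences between subtypes were not tested.

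The make-up of SLRP counts in FAPs differed between the days. Dcn was 74.9% of the 10 members' counts at day 2 and 60.3% at day 7, Bgn 14.9% and 20.7%, Lum 5.50% and 12.7%, and Aspn 0.246% and 3.06%. In Tenocytes the share of Dcn was 69.5% and 36.3%, that of Fmod 16.6% and 19.9%, and that of Bgn 3.86% and 21.0%.

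Tenocytes gave a different set of day ratios from 16 and 48 cells. Aspn was 5.98 on the log2 scale (4.62 to 7.86), Bgn 2.98 (2.67 to 3.32), Lum 2.72 (2.26 to 3.23) and Ogn 1.34 (0.91 to 1.79). Fmod was 0.81 (0.64 to 0.97) and Chad 0.08 (-0.82 to 1.07), while Dcn was -0.40 (-0.49 to -0.31), Prelp -0.61 (-1.04 to -0.17) and Kera -0.88 (-1.46 to -0.29).
Of 9 members with 50 counts over both days, 4 were at least 2-fold higher and 0 at least 2-fold lower, against 20.8% and 16.1% of 1785 genes. Of these 4, Aspn had 4 counts at day 2 and could pass that filter only by being higher at day 7, and Lum had 39. Without cells holding 3 or more counts of other classes' markers 3 were higher and 2 lower. The same numbers were found by the mean of per-cell CPM, where the sum of the 10 turned to -0.09. The share of all genes was not taken under these 2 settings, so these counts have no background. These values are for the whole label, of which 24 of the 48 cells at day 7 had no tendon gene count. Between the Tenocytes with a tendon gene count of each day (13 and 24 cells), Prelp was -0.01 and Kera -0.07, Dcn was -0.18, and Fmod and Chad were 1.49 and 0.76. The negative values of Dcn and Prelp also depended on scaling, as median-of-ratios scaling turned them to 0.30 and 0.09. The median of 401 genes with 50 counts on each day lay at -0.70, and that of the 5 members among them at 0.81.

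Within each library, Tenocytes were compared with all FAPs. At day 2, Ogn was 1.75 higher on the log2 scale in Tenocytes (1.30 to 2.18), Prelp 0.74 higher (0.37 to 1.09) and Dcn 0.67 higher (0.60 to 0.75), whereas Lum was -0.83 (-1.33 to -0.38) and Bgn -1.17 (-1.49 to -0.86). Of 7 members with 50 counts in the pair, 2 were at least 2-fold higher (7.21% of 7764 genes) and 1 at least 2-fold lower (19.5%). One of the 2, Fmod, reached 50 counts through Tenocytes alone, so its direction was fixed by the filter. At day 7, Aspn was 1.06 higher (0.95 to 1.17) and Ogn 0.66 higher (0.50 to 0.82), Prelp was 0.02 (-0.25 to 0.28), Bgn -0.30 (-0.37 to -0.23), Lum -0.96 (-1.07 to -0.86) and Dcn -1.06 (-1.11 to -1.01).
Of 9 members, 3 were then at least 2-fold higher (4.23% of 9710 genes) and 1 at least 2-fold lower (10.9%). Kera, 1 of the 3, likewise passed through its 66 counts in Tenocytes. In the day 7 Tenocytes with a tendon gene count, Aspn (0.74) and Dcn (-0.83) were no longer 2-fold from FAPs, whereas Ogn was 1.15 higher. As mean counts per cell the day 2 value of Ogn was 0.48, under 2-fold, and those of Dcn and Prelp turned to -0.60 and -0.54. The day 7 value of Ogn turned to -0.48 without cells that held 3 or more counts of immune, endothelial and smooth muscle markers.

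Detection per cell was read at equal depth, after thinning each cell to 2000 counts. In FAPs (Pro-remodeling) Dcn was found in 100% of cells on both days. Lum went from 52.2% to 97.8% of cells, Ogn from 11.6% to 54.1% and Aspn from 2.17% to 65.5%, while Prelp was at 43.5% and 41.6%. No cell of this label was left out by the thinning. Without it, Lum was found in 97.8% and 99.8% and Aspn in 10.1% and 94.7%.

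T cells, which should lack these transcripts, were taken as a gauge of free RNA, though the source of their counts was not tested. After thinning, Dcn was found in 4.35% of them at day 2 and 9.27% at day 7, Bgn in 2.17% and 5.24%, and Aspn in 2.17% and 0.806%, with 4 and 45 shallower T cells left out. Their median counts were 3318 and 3620, and the unthinned shares for Dcn were 12.0% and 21.5%. The Aspn share of FAPs (Pro-remodeling) at day 2 equalled that of T cells, and 10 of the 11 Aspn counts in T cells came from 1 cell. In barcodes with 1 to 100 counts the 10 members made up 629 CPM at day 2 and 3764 CPM at day 7.

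A FAP held a median of 2 to 3 of the 10 members at day 2 and 4 to 5 at day 7 after thinning. A tenocyte held a median of 4 on both days. The median was 0 in every immune label.

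Outside FAPs and tenocytes, Aspn was found in part of the Smooth Muscle label. It had 545 counts in 136 of 304 cells at day 2 (107 CPM, 97.9 to 116) and 478 counts in 106 of 232 cells at day 7 (176 CPM, 161 to 193). This was above the immune cells by 7.13 on the log2 scale (6.42 to 7.95) and 5.16 (4.75 to 5.6). For Dcn the same comparison gave 0.20 (-0.18 to 0.57) and -0.50 (-0.85 to -0.17), so the Dcn of this label was close to the immune background. There were 6.99 Aspn counts for each Dcn count in Smooth Muscle at day 2, against 0.00328 in FAPs and 0.0574 in immune cells, and 5.49, 0.0507 and 0.108 at day 7.

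Smooth Muscle cells with 2 or more Aspn counts were set beside those with none. At day 2 they numbered 102 and 168, with median counts of 17308 and 11679, and Rgs5, a pericyte gene, stood at 2534 against 424 CPM. Acta2, encoding smooth muscle actin, was 571 against 73.9 CPM, and Kcnj8, another pericyte gene, 351 against 26.4. At day 7, with 83 and 126 cells and medians of 8110 and 8886, Rgs5 was 6337 against 519 CPM and Acta2 1842 against 106.
The 6 FAP markers summed to 1936 and 2260 CPM in the whole label at days 2 and 7. Most of this was Ly6a and Cd34, which endothelial cells also express, at 1222 and 354 CPM in the Aspn-positive cells of day 2 and 1710 and 527 in the others. Pdgfra, Dpt and Pdgfrl had at most 3.23 CPM in either set of day 2, and Gsn was 54.5 CPM in the Aspn-positive cells against 8.65.
Endothelial markers outweighed those of smooth muscle in the label, at 3781 against 2407 CPM at day 2 and 5296 against 4766 at day 7 for lists of 6 genes each, so the name is used only as the annotation gives it. The cells without Aspn held mostly endothelial markers at day 2, such as Cdh5 at 1335 CPM and Pecam1 at 1134, and in the Aspn-positive cells these were 921 and 713 CPM. Their part in the Aspn values was not tested.

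Bgn was found in several other labels. In Smooth Muscle it stood at 67.9 CPM at day 2 and 94.5 at day 7, which was 4.18 (3.82 to 4.55) and 1.54 (1.30 to 1.78) above immune cells. At day 7 it reached 657 CPM in Endothelial (Vein) from 104 counts in 17 of 21 cells. It was 469 CPM in muscle stem cells (MuSCs, 137 cells) and 277 CPM in Myoblasts/Progenitors (175 cells), and 266 CPM in Neural (41 cells).

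Ogn and Prelp were also present in the myogenic cells of day 7. Ogn stood at 137 CPM in MuSCs and 49.6 in Myoblasts/Progenitors, against 2.42 CPM in immune cells. Prelp was 83.9 and 26.2 CPM, against 1.49 CPM. MuSCs were above Myoblasts/Progenitors by 1.47 (1.07 to 1.86) for Ogn, 1.68 (1.15 to 2.20) for Prelp and 0.76 (0.57 to 0.94) for Bgn on the log2 scale. As mean counts per cell these differences were 0.10, 0.31 and -0.61, so that of Bgn was in the other direction.

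Myogenic cells held 6.01 Bgn counts and 1.31 Ogn counts for each Dcn count, compared with 0.343 and 0.0335 in FAPs. The Neural label had 67 Ogn counts in 20 of 41 cells at day 7 (312 CPM) and 9 Dcn counts. Day 2 held only 21 MuSCs and 9 Neural cells, and the values there rested on 23 or fewer counts per member.

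**Figure D5:**
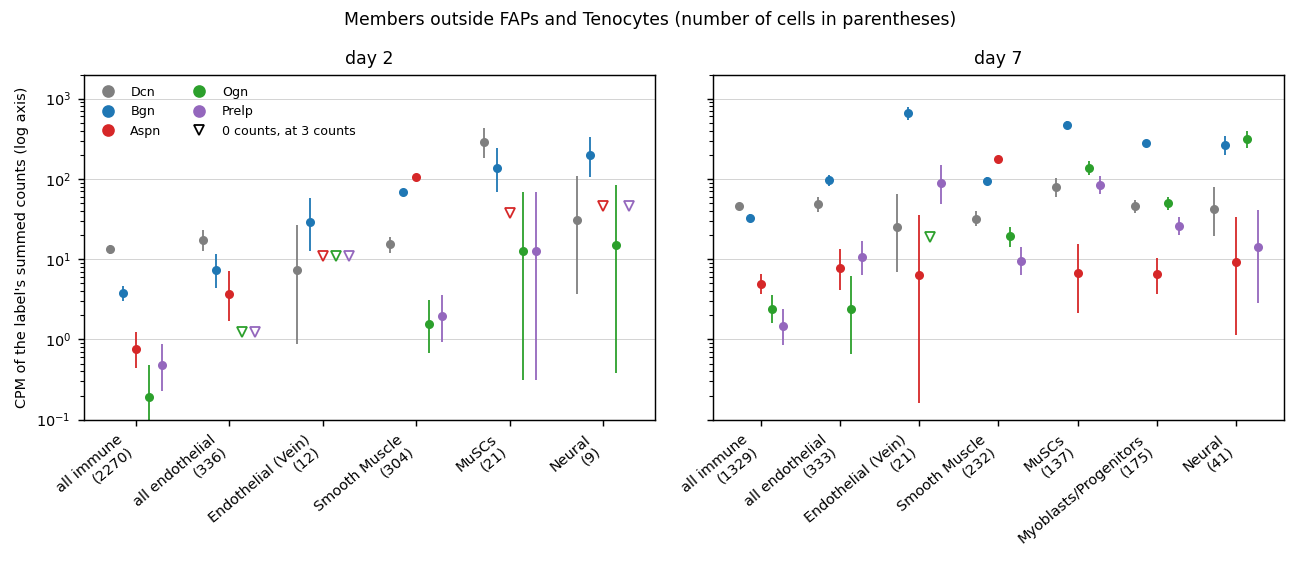
Level of Dcn, Bgn, Aspn, Ogn and Prelp (CPM, log axis) in labels outside the FAPs and Tenocytes at day 2 and day 7, with 95% counting intervals, beside all immune cells, with 0 counts drawn at the level of 3. Aspn stands out in Smooth Muscle at 107 and 176 CPM, and Bgn, Ogn and Prelp stand above the immune cells in the myogenic labels of day 7.

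Genes with the most similar patterns were sought over 35 combinations of label and library with at least 30 cells, as a description, since these share libraries and depth. For Bgn the closest was the fibrillar collagen gene Col5a1 (Pearson r = 0.984), followed by Col5a2 and Col1a2. For Dcn it was Cpxm1 (0.962), then Lum and Mfap5, and for Lum it was Dcn (0.960), then Smoc2 and Cpxm1.
Prelp was closest to Loxl1 (0.971), a collagen and elastin cross-linking enzyme, then Larp6 and Mrc2. Ogn was closest to Col5a1 (0.955), then Sdc2 and Fap. Fmod was closest to the tendon gene Tnmd (0.909), then Lrrc15 and Scube2. Tenocytes met the limit of 30 cells only at day 7, so the Fmod ranking leaned on 1 combination with a high level. Aspn was closest to Nox4 (0.894), then Loxl2 and Aoc3. Kera, Omd and Chad had under 200 counts and were not ranked. With a pseudocount of 10 CPM in place of 1, 14 of the 21 named pairs were kept.

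Related genes gave context for the FAP day ratios. Of 6 fibrillar collagen genes, which encode the fibrils that SLRPs bind, 5 had 50 counts and all 5 were at least 2-fold higher at day 7, with a median of 3.90 on the log2 scale, from 2.47 for Col5a2 to 4.99 for Col1a1. Of 8 other SLRP family genes, 4 had 50 counts and 2 were at least 2-fold higher, with a median of 2.23. The largest was Ecm2, at 22.2-fold, which lies 11.65 kb before Aspn on chromosome 13 and reached 50 counts through day 7 (43 and 1518 counts), and the smallest was Tsku at -0.10 (-0.57 to 0.37).

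Enzymes that build the glycosaminoglycan chains had smaller medians. Of 6 linker enzymes 1 was at least 2-fold higher and 0 lower, with a median of 0.59, from -0.32 for Fam20b to 1.21 for Xylt1, which had 33 counts at day 2 and 121 at day 7. Of 12 chondroitin and dermatan sulphate enzymes with 50 counts among 14, 4 were higher and 1 lower, with a median of 0.78, from -1.67 for Chst11 to 2.42 for Chst15, which had 6 and 51 counts.
Of 3 keratan sulphate enzymes with 50 counts among 7, 1 was higher, from 0.65 for Chst2 to 1.19 for B4galt1. Receptors named for SLRPs had a median of -0.07 over 5 of 6 genes, 1 of them at least 2-fold higher, from -0.40 for Tlr2 to 1.03 for Tlr4, which had 47 and 152 counts. Ecm2, Xylt1, Chst15 and Tlr4 had under 50 counts at day 2, and for Chst15 the filter fixed the direction. The background for these counts is the same 22.7% higher and 14.4% lower of all genes.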

How the data were processed

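The authors deposited UMI counts, whole numbers for each gene in each barcode, made with Cell Ranger 3.1.0 per the submitters' processing notes (3.0.1 per the file headers) on mm10. Estimated counts, in which SoupX had subtracted free RNA, were deposited beside them, as was a table of cell types drawn from a larger integrated collection after DoubletFinder had removed putative doublets. These estimated counts set the limits on cells (750 genes and 1000 transcripts or more, and a mitochondrial share of 30% or less) and served as an alternative. Cells in the table with a cell type were kept, 3178 at day 2 with 34026345 counts and 3196 at day 7 with 27620535 counts.

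Counts of each of the 10 members were summed per cell type and library and divided by all counts of those cells (CPM). Ratios were given 95% exact conditional binomial intervals, levels exact Poisson intervals and shares exact Clopper-Pearson intervals, which cover counting error only. A ratio was set beside the same ratio over all genes with at least 50 counts in the pair, and 2-fold was the size counted. Bounds against 0 counts used 3 counts over the group. No test was run, because each day had 1 library. On simulated counts for 10391 genes in FAPs between days, with 200 genes changed, 95.8% of the intervals held the true ratio. These counts were drawn from the Poisson model that the intervals assume, with no differences between cells or mice. The simulation therefore checked only the calculation and not how well the intervals suit the real counts.

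Named were the 10 members, the 3 genes most like each member with at least 200 counts, the extremes of each list of related genes, and the markers that check a label. The members, lists and classes were chosen with earlier results of these data known. Python 3.11.15, numpy 2.4.6, scipy 1.17.1 and pandas 2.3.3 were used.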

Additional observations from a re-analysis of the deposited data

Results flagged for a closer look

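Several day or label differences pointed in opposite directions in groups compared side by side, and none of these differences was itself tested, since each group was 1 library or 1 label within it. Dcn in Tenocytes over FAPs was 0.67 on the log2 scale at day 2 and -1.06 at day 7, and the sum of the 10 members was 0.78 and -0.32. The matching day ratios were 1.33 for Dcn in FAPs and -0.40 in Tenocytes. Prelp between days was 0.11 in FAPs and -0.61 in Tenocytes. Within FAPs, Prelp in FAPs (Stem) over FAPs (Pro-remodeling) was -0.93 at day 2 and 0.53 at day 7, and over FAPs (Adipogenic) it was -0.99 and 0.28. Its day ratio was 1.29 in FAPs (Stem) and -0.17 in FAPs (Pro-remodeling).
Some of these opposite directions depended on the scale. As mean counts per cell, Dcn in Tenocytes over FAPs was -0.60 at day 2 and the sum of the 10 was -0.49, Prelp between days was -1.13 in FAPs, and Prelp in FAPs (Stem) over FAPs (Pro-remodeling) was -0.07 at day 7. On that scale the day ratio of Prelp was -0.49 in FAPs (Stem) and -1.26 in FAPs (Pro-remodeling), the same direction in both. With median-of-ratios scaling the day ratios in Tenocytes were 0.30 for Dcn and 0.09 for Prelp. Between Tenocytes with a tendon gene count they were -0.18 and -0.01 on the CPM scale.

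Barcodes outside the comparisons also held SLRP counts. In barcodes of the annotation table without a cell type the sum of the 10 members stood at 35.4 CPM at day 2 and 240.5 CPM at day 7. In barcodes called as cells that met the same limits but were outside the table (680 and 477), it stood at 1663 CPM and 1901 CPM. These barcodes carry no label and entered no comparison.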

How the results depend on the processing

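Of 377 ratios between days, between Tenocytes and FAPs and between FAP subtypes under other settings, 359 kept their sign. The sign changed in 18, of which 8 had a main interval that held 0. Sizes were less stable than signs. Among ratios of single members, 93 values moved out of the main interval, 8 reversed and 232 stayed. Among the headline values (sums, shares, levels and counts of members), 57 moved, 2 reversed and 120 stayed. No paired analysis was possible because each day had 1 library. The scales of mean counts per cell, the Tenocytes with a tendon gene count and the omission of the 5 highest Tenocytes were chosen after seeing the data. The sum of the 10 members between days in FAPs (1.65 on the log2 scale) was 1.67 with stricter limits on cells, 1.57 without cells holding 3 or more counts of other classes' markers, 1.60 as the mean of per-cell CPM, 1.73 with median-of-ratios scaling, 1.74 with equal weight of subtypes and 0.41 as mean counts per cell. On the last scale Prelp reversed to -1.13. In Tenocytes (0.54) these settings gave 0.74, 0.12, -0.09 (reversed), 1.24 and, per cell, 0.46, and 0.79 in cells with a tendon gene count. Median-of-ratios scaling reversed Dcn to 0.30 and Prelp to 0.09 there. In Tenocytes 2 members were at least 2-fold lower without cells holding other markers and, again 2, as the mean of per-cell CPM. The share of all genes was not taken under these 2 settings.

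Tenocytes over FAPs at day 2 (0.78) was 0.67 with stricter limits, 1.17 as the mean of per-cell CPM and -0.49 per cell, which reversed Dcn to -0.60 and Prelp to -0.54. Members at least 2-fold higher numbered 4 as the mean of per-cell CPM and 1 per cell, with 2 lower. The share of all genes on these scales was not taken, so these counts have no background. At day 7 (-0.32) the values were -0.25 with stricter limits, -0.71 without cells holding other markers (Ogn reversed to -0.48), -0.52 as the mean of per-cell CPM, -0.40 with median-of-ratios scaling, -0.44 per cell and -0.05 in cells with a tendon gene count. Members at least 2-fold lower numbered 0, 2, 2, 2, 2 and 0 in that order, again without a share of all genes under the same settings. FAPs (Stem) over FAPs (Pro-remodeling) was -1.0 per cell at day 2 (main value -1.08). At day 7 (-0.44) it was -0.39 without cells holding other markers and -1.04 per cell, which reversed Prelp to -0.07 and Aspn to -0.29.

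The share of SLRP counts in FAPs and Tenocytes was 97.4% and 98.8% with SoupX values, 96.8% and 98.4% with stricter limits, and 99.8% on both days without cells holding other markers, which left 139 and 879 cells and so removed most other classes by construction. With 2-fold in place of 4-fold, 0 members were shared at day 2 and 1 at day 7, and at day 2, 2 were restricted to Tenocytes and 1 (Aspn) to FAPs (Stem). Without a minimum of 50 counts 3 were restricted to Tenocytes at day 2 and 1 (Omd, from 6 counts) to FAPs (Stem). At day 7, 1 was restricted to Tenocytes without cells holding other markers. The shares of all genes were not taken under these other rules, so these member counts have no background beside them. Thinning to 2000 counts gave Lum in 43.7% and 95% of FAPs and Aspn in 3.76% and 62.2%, and a minimum of 2 counts gave 82.3% and 96%, and 10.7% and 76.5%. Barcodes with 1 to 10 counts held SLRPs at 720 and 4047 CPM. The cause of these shifts was not tested. Tenocytes rested on 16 and 48 cells, and Kera, Omd and Chad on 115, 146 and 58 counts in kept cells of both days together, which limits their intervals.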
